A study of Mus musculus with 9 samples.

Results

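The Zfp zinc finger proteins described here are the mouse genes whose symbol is Zfp followed by a number, without Zfp36, and whose normalized count averaged at least 100 over all 9 samples. Of 388 such symbols among the 45535 rows that carry a gene symbol, 229 met the limit and are called members. A further 95 averaged between 10 and 100 and 64 stayed under 10. Members were thus chosen by their mean level over all samples and not by the difference between groups. The last members inside it were Zfp931, Zfp420 and Zfp59, with means of 103.9, 103.4 and 102.2, and the first genes outside it were Zfp712, Zfp605 and Zfp873, with 99.3, 97.37 and 97.36. Because a gene could reach the limit through 1 group alone, 31 members averaged under 100 before culture only and 2 averaged under 100 after culture only, and those 33 had to differ in that direction.

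The cells were CD103+ dendritic cells from the lungs of C57/BL6j mice that had been given bleomycin, which injures the lung and leads to scarring, 7 days earlier. Lungs were digested with collagenase and the cells were taken out on magnetic beads. In the before-culture group (n = 5) RNA was prepared directly, and in the after-culture group (n = 4) it was prepared after 18 h outside the animal in RPMI with serum (10% FBS) and antibiotics (1% pen/strep). Both groups came from bleomycin-treated mice, and age, sex and the number of mice per sample are not given in the sources used here. The labels do not say whether samples are separate animals, so p-values measure the spread between these samples only.

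A C2H2 zinc finger is a short loop held by a zinc ion that reads a few bases of DNA, and proteins of this family carry many of them in a row. In mammals the largest subgroup also carries a Krüppel-associated box (KRAB), a short N-terminal domain that recruits the co-repressor Trim28 (KAP1) and through it the histone methyltransferase Setdb1, which together lay down repressive chromatin, often over retrotransposons. KRAB genes lie in dense genomic clusters of near copies. Members without the box include activators, chromatin cofactors, ubiquitin ligases and RNA-binding proteins, and a few of them, such as Zfp366 (DC-SCRIPT), are known from dendritic cells.

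Reads could be recovered as whole numbers from the normalized counts, and depth in named rows ran from 14673818 to 35286110 reads per sample. The labelled cell type was checked against 10 markers of type 1 conventional dendritic cells. All 10 were detected, 7 fell and 3 rose, and their summed normalized count ran from 77233 to 89684 before culture and from 26811 to 32509 after culture; Itgae, which encodes CD103, was 10.5-fold lower after culture and Batf3, Flt3 and Zbtb46 were higher. Of 10 genes of mature dendritic cells 9 rose and 1 fell (46749 to 48950.4 against 182776 to 199316). Markers of other cells of the lung were present and moved with culture: 7 of 8 neutrophil genes fell and Ly6g stayed under the limit for testing, with 0 reads in each cultured sample, which allows up to 3 (14298 to 25015 against 932 to 1902). All 8 endothelial genes fell (23749.6 to 34849 against 3309 to 4339), as did all 8 fibroblast genes (17250.1 to 30895 against 2379.5 to 4691) and 7 of 8 epithelial genes (26087 to 44968 against 4563 to 8993). Among 10 T and NK cell genes 6 fell and 1 rose (5892 to 7825 against 4546 to 5871), among 6 B cell genes 2 fell and 1 rose (8036 to 11796 against 5962 to 8329.9), and among 10 macrophage genes 4 fell and 1 rose (26617 to 46729 against 23443 to 46726). All 10 genes of mitosis fell (16605 to 19658 against 2596 to 4242). In bulk samples, fewer cells of a type and less RNA per cell cannot be told apart, and the part of these shifts in the results below was not tested unless a value is given.

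As a family, the Zfp members were mostly higher after culture. Of 229 members, 156 (68.1%) were higher, 30 (13.1%) were lower and 43 did not pass the test (limma on log2 of the normalized count plus 1, Benjamini-Hochberg adjusted p under 0.05 over 18202 genes). Over all genes tested, 34.2% were called higher and 34.6% lower (68.8% in all), and among the 11786 genes that share the members' limit of 100 the shares were 37.1% and 36.3% (73.4% in all). A rise of at least 2-fold was called in 75 members (32.8%, against 10.5% of genes with a mean of at least 100 and 14.1% of all tested genes) and a fall of that size in 9 (3.93%, against 15.4% and 18.6%). The median log2 fold change of the members was 0.59 (quartiles 0.10 and 1.32), beside 0.01 over genes with a mean of at least 100. In 152 members all after-culture samples lay above all before-culture samples and in 23 all lay below, 175 in all. Of genes with a mean of at least 100, 32.6% and 30.2% separated in those directions (62.9% in all), and of all tested genes 28.7% and 28.6% (57.3% in all). Among the 196 members that averaged at least 100 in both groups, 125 were higher and 28 lower, with a median of 0.51. The 95 genes with means between 10 and 100 gave 61 higher, 14 lower and a median of 0.86.

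Other scalings shifted the median over all tested genes and left the direction of the family's median. Upper quartile scaling moves all genes of a sample together, while GC and length correction moves each gene by its own GC content and length. The median over all tested genes went from 0.01 to 0.13 when each sample's trend over GC content and length was removed and to 0.11 with upper quartile scaling, and the members' median then stood at 0.65 and 0.70. With GC and length correction 17 members, in place of 30, were called lower, and 5 in place of 9 were at least 2-fold lower. Without any 1 sample the number of members called higher stayed between 152 and 157 and the number called lower between 24 and 31, and without before-culture replicate 4, which stood apart for several members, the counts were 155 and 31.

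Summed over all members, the normalized count was 148821, 150445, 150640.1, 146456 and 153764 in before-culture replicates 1 to 5 and 190589, 189303, 198482 and 198574 in after-culture replicates 1 to 4. Every cultured sample was above every uncultured one. The sum of the 110 members with a KRAB box was 27873, 29399.7, 28855, 30732 and 28808 before and 55898, 52992, 61272 and 58359 after culture, a mean ratio of 1.96. For the 112 members without the box the sums were 120264, 120215, 121062, 114898 and 124317 and 132605, 134319.8, 135109 and 137888, a ratio of 1.12. The 2 groups of samples did not overlap for either class. Per kilobase of the longest annotated transcript, members without a KRAB box had the higher level in both groups: their median normalized count per kilobase was 151 before and 179.5 after culture, beside 45.6 and 95.4 for members with the box. On that scale Zfp207, Zfp703 and Zfp217 had the highest mean levels of all 224 members with an annotated transcript (1464, 1181 and 964 normalized counts per kilobase).

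For many members the same sample of a group was the highest or the lowest. How many of all tested genes share this order was not counted, so it may not be particular to the members. After culture, replicate 3 was the highest of the 4 samples for 60 of 110 members with a KRAB box, and replicate 2 was the lowest for 60. Macrophage and monocyte markers had the opposite order in these samples, with a summed normalized count of 46726 in replicate 2 and 23443 in replicate 3. Neutrophil markers and mitosis genes also had that opposite order. Markers of type 1 conventional dendritic cells had the KRAB members' order (26811 in replicate 2 and 32509 in replicate 3), as did T and NK cell markers (4546 and 5871). The other marker lists matched neither order in full. Before culture, replicate 4 was the highest for 41 of the 110. It had the lowest macrophage (26617) and neutrophil (14298) sums of that group. Its epithelial (44968), T and NK cell (7825) and mitosis (19658) sums were the highest. For members without the box, before-culture replicate 4 was the lowest for 48 of 112. The part of these cells in the spread was not tested. Within groups, the median coefficient of variation over members was 10.8% before and 8.52% after culture. For members with a KRAB box it was 12.1% and 9.31%, beside a ratio of 1.96 between the group means of their sums. For members without the box it was 9.64% and 8.12%, beside a ratio of 1.12.

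Members with and without a KRAB box had different counts and medians. Translated coding sequences were found for 222 members and were searched by sequence pattern for the box and for C2H2 fingers. A box that departs from the pattern would be missed, so members without a box are those in which none was found. Of 110 members with a KRAB box 93 (84.5%) were higher and 6 (5.45%) lower, 59 of them at least 2-fold higher, and the median log2 fold change was 1.11. Of 112 members without one 56 were higher and 24 (21.4%) lower, 11 of them at least 2-fold higher and 8 at least 2-fold lower, with a median of 0.26. Of the KRAB members 24 averaged under 100 before culture only and had to be higher, against 4 without the box. Among members with a mean of at least 100 in both groups, 69 of 85 with the box were higher and 5 lower (median 0.89), and 52 of 107 without it were higher and 23 lower (median 0.23). All 7 members for which no coding sequence was found were higher. Another 23 KRAB genes with other names and a mean of at least 100 gave 20 higher, 1 lower and a median of 1.09. Other zinc finger families with a mean of at least 100 had lower medians: 0.18 for 37 Zbtb genes, which carry a BTB domain in place of KRAB (18 higher, 9 lower), and -0.87 for 12 Klf genes (1 higher, 10 lower). For 15 Zscan and Zkscan genes, which carry a SCAN domain, the median was 0.69 (10 higher, 2 lower), above the 0.59 of all members. This set and the 23 KRAB genes with other names have the same lowest log2 fold change (-0.70), so the sets overlap. Between members no test of the difference between classes was made, since members were chosen with results known.

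**Figure D1:**
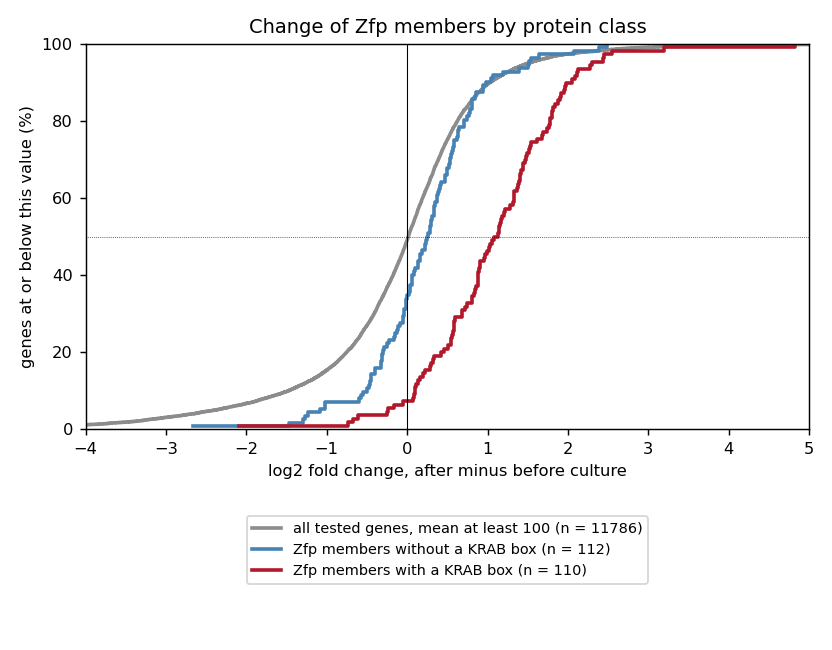
Cumulative share of genes (vertical axis, percent) at or below each log2 fold change after minus before culture (horizontal axis), for 110 Zfp members with a KRAB box, 112 without one and all 11786 tested genes with a mean of at least 100. The curve of the KRAB members crosses 50% at 1.11, that of the other members at 0.26 and that of all genes at 0.01.

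KRAB members with more fingers were called higher in larger share. Of 75 KRAB members with 11 or more fingers 69 were higher and 2 lower (median 1.28), and of 35 with 10 or fewer 24 were higher and 4 lower (median 0.68). Across 222 members the rank correlation of finger number with the log2 fold change was 0.44 (Spearman, a description: members share libraries, and finger number goes with base composition). The 6 KRAB members that were lower were Zfp667, Zfp954, Zfp282, Zfp46, Zfp777 and Zfp747, of which the last 4 are named after their values were seen; their log2 fold changes were -2.09, -0.73, -0.68, -0.61, -0.25 and -0.24. With GC and length correction Zfp667, Zfp954 and Zfp46 stayed lower, Zfp282 lost its call (-0.12), Zfp747 turned to 0.0683 without a call and Zfp777 was called higher (0.41). The calls of Zfp777 and Zfp747 were each also lost in 6 of the 9 fits that left out 1 sample. Near copies can exchange reads, so the share of 50-base windows of each transcript that also occurs in another gene was measured. Among 79 KRAB members with under 5% shared windows, 66 were higher and 5 lower, with a median of 1.02. In 13 members 20% or more of the windows were shared, and their values are uncertain.

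Genomic clusters differed in how many of their members rose. Members were placed in a cluster where at least 4 lay with gaps of no more than 500 kb, which gave 14 clusters with 97 members in GRCm38 coordinates. In the clusters 77 members were higher and 8 lower (median 0.90), and among 127 members outside them 74 were higher and 22 lower (median 0.33), where 37.1% and 36.3% of genes with a mean of at least 100 were called. Clusters held 71 of the 110 KRAB members, and within that class the medians were 1.15 for the 71 in clusters (62 higher, 4 lower) and 1.02 for the 39 outside (31 higher, 2 lower). For members without the box they were 0.39 in clusters (26 members) and 0.23 outside (86 members). The largest cluster, at chr17:21008903-23193252, held 18 members from Zfp160 to Zfp40, all with a KRAB box. Every one of the 18 was called higher, and their log2 fold changes spanned 0.58 to 3.20 around a median of 1.24. With GC and length correction 14 of the 18 kept the call and Zfp758, Zfp40, Zfp946 and Zfp944, named after their values were seen, lost it. A cluster of 9 KRAB members at chr13:67194506-67729173, from Zfp455 to Zfp65, was higher in all 9 (median 1.44), and so were 5 of 5 at chr9:20345136-20605409 (median 1.47) and 5 of 5 at chr7:27731389-28014115 (median 1.87). In all, 5 of 14 clusters had every member called higher, 3 had members that were not called and none lower, and 6 had at least 1 member lower. At chr6:47835661-48623227, where the box was found in 3 of 8 members, 2 were higher and 2 lower (median -0.00275).

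**Figure D2:**
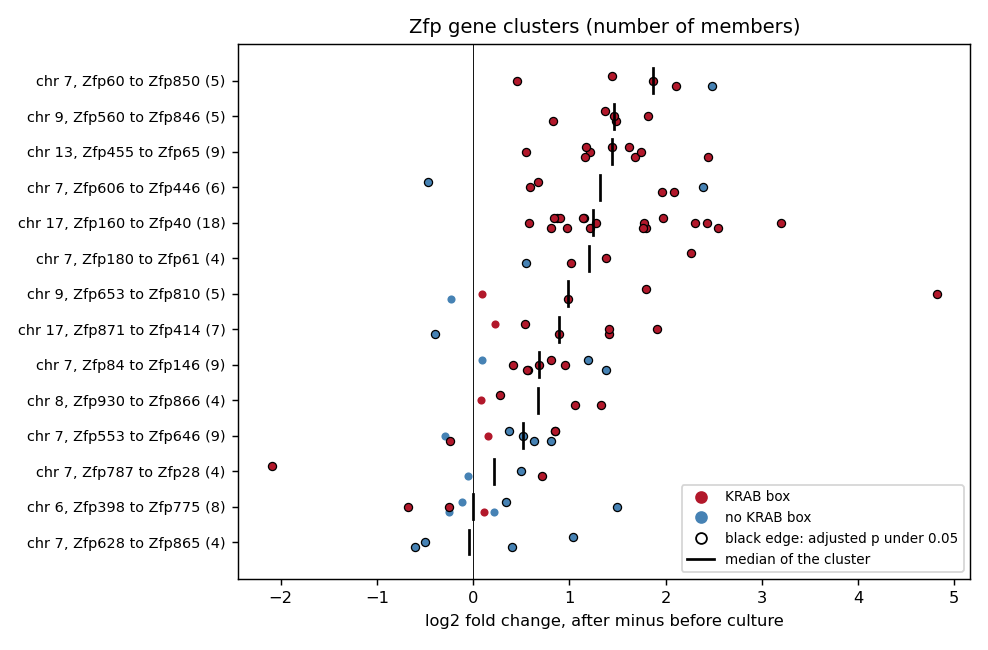
Log2 fold change after minus before culture (horizontal axis) of every member in the 14 Zfp gene clusters (rows, with chromosome, first and last member and number of members), coloured by KRAB box, with a black edge for an adjusted p under 0.05 and a vertical stroke at the cluster's median. All 18 members of the largest cluster, on chromosome 17, lie right of 0 (14 still called higher with GC and length correction), and the cluster on chromosome 6 is centred near 0.

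The members of the chromosome 17 cluster were compared with Zfp52 in the box that recruits the co-repressor. The following 48 coding bases of the KRAB A box are shown for their likeness to Zfp52. The bases were found by a pattern that fixes part of the residues, and KRAB genes outside the cluster were not compared. Their likeness can therefore not be tied to the shared rise. They were read from GENCODE M21 transcripts (GRCm38) in the direction of the gene, with capitals marking bases that differ from Zfp52, whose copy lies at chr17:21557147-21557194 on the plus strand. Besides Zfp52, they belong to the closest copy (Zfp229), the largest rise (Zfp760), 2 other members of the 10 largest rises (Zfp983, Zfp945), the smallest rise of the cluster (Zfp944) and the least alike copy (Zfp943), and Zfp229, Zfp944 and Zfp943 are named after their values were seen.
Zfp52: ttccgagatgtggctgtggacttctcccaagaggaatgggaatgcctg
Zfp229: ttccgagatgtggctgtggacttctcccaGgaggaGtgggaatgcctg
Zfp760: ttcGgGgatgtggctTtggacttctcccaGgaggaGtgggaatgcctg
Zfp983: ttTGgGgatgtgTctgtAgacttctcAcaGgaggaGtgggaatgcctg
Zfp945: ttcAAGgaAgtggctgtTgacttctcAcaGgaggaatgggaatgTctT
Zfp944: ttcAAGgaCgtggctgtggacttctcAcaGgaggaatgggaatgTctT
Zfp943: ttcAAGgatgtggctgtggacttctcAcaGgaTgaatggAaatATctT
The boxes lie at chr17:21742508-21742555, chr17:21720956-21721003, chr17:21658925-21658972 and chr17:21990791-21990838 on the plus strand and at chr17:22857317-22857364 and chr17:22341034-22341081 on the minus strand. Over the cluster, identity to Zfp52 ran from 79.2% to 95.8% with a median of 83.3%. Among the genes shown, which were picked as extremes, closeness in the box did not order the changes. The order over the whole cluster was not computed. Zfp229, with 2 differing bases, had a log2 fold change of 1.98, Zfp760, with 5, had 3.20, and Zfp945, with 9, had 2.30. Zfp944, with 8, had 0.58, and Zfp943, with 10, had 0.88. Zfp944 and Zfp943 stood at 0.0686 and 0.29 with GC and length correction.

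Zfp872, a KRAB protein with 12 fingers at chr9:22188090-22202123, had the largest rise of the family. Its normalized counts were 21.9, 26.0, 43.8, 65.3 and 17.9 in before-culture replicates 1 to 5 and 953, 539.8, 1218 and 1095 in after-culture replicates 1 to 4. The lowest cultured sample lay far above the highest uncultured one, and replicate 2 was the low one after culture. The mean rose 27.2-fold (log2 fold change 4.82, SE 0.34, adjusted p = 3.29e-08). Its neighbour Zfp809 in the same cluster of 5 members rose as well, while Zfp810 (named after its value was seen) did not pass the test (log2 fold change 0.10, adjusted p = 0.546; -0.081, without a call, with GC and length correction). Zfp760, a KRAB protein with 16 fingers at chr17:21707741-21725636, had normalized counts of 35.2, 45.8, 31.4, 47.7 and 26.8 before and 335, 297, 437 and 321 after culture, without overlap (log2 fold change 3.20, SE 0.19, adjusted p = 7.69e-09). For Zfp52, at chr17:21535539-21562601, they were 243, 220.3, 255, 306 and 299 before and 1447, 1287, 1497 and 1451 after culture (log2 fold change 2.43, SE 0.11, adjusted p = 3.44e-10). All 4 cultured samples of Zfp52 lay within a narrow range, each above 4 times the highest uncultured sample.

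Others among the 10 largest rises repeated this separation. All 10 stayed called higher in each of 22 alternative settings, GC and length correction among them. Their sizes are given without that correction, which lowered the median of the KRAB members from 1.11 to 0.78. Zfp983 and Zfp945, of the chromosome 17 cluster, rose 5.92-fold and 5.04-fold. Zfp455, of the chromosome 13 cluster, had normalized counts of 28.6, 39.6, 38.1, 62.8 and 25.1 before and 184, 213, 217 and 207 after culture (log2 fold change 2.44, SE 0.23, adjusted p = 6.57e-07). Zfp111, a KRAB protein of a chromosome 7 cluster, had 119, 125, 146, 133 and 132 before and 618, 595, 677 and 647 after culture (log2 fold change 2.27, SE 0.10, adjusted p = 3.65e-10). In none of these did the groups overlap, and before-culture replicate 4 was the highest uncultured sample for Zfp455, Zfp983 and Zfp945. The list also held 3 genes without a detected box. Zfp974, with 21 fingers, and Zfp329, with 12, both on chromosome 7, rose 5.66-fold and 5.31-fold. Zfp469, whose human counterpart is mutated in brittle cornea syndrome, had 38.1, 32.2, 40.4, 10.9 and 28.6 before and 236, 262, 237 and 252 after culture (log2 fold change 3.12, SE 0.31, adjusted p = 8.98e-07). GENCODE M21 lists Zfp469 at chr8:122269569-122272650 without a coding sequence, so its fingers were not counted.

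**Figure D3:**
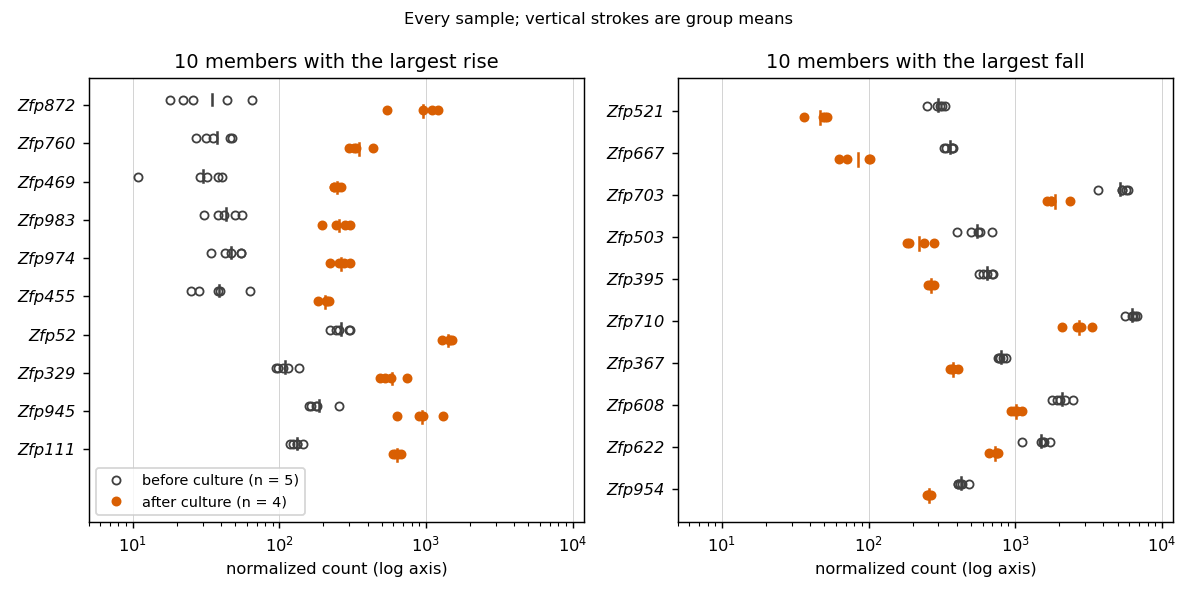
Normalized count (horizontal log axis) of the 10 members with the largest rise (left) and the 10 with the largest fall (right) in each of 5 samples before culture (open circles) and 4 samples after culture (filled circles), with vertical strokes at group means. The groups do not overlap for any of the 20 genes. Zfp872 stands apart with the widest gap, from 65.3 in the highest uncultured to 539.8 in the lowest cultured sample.

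The 250 bases upstream of the annotated start are shown for 3 members with large rises and for Zfp667, the KRAB member with the largest fall, because all 4 carry the same box and moved apart. They are from RefSeq (GRCm38.p6), 5′ to 3′ in the direction of the gene, and capitals mark matches on either strand to 5 motifs that were searched, which are spelled out further on.
Zfp872: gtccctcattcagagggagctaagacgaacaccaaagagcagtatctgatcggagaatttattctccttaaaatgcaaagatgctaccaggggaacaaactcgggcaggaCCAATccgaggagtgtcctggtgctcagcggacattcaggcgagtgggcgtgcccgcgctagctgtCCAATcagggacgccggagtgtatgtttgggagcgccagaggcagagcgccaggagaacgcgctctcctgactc
Zfp760: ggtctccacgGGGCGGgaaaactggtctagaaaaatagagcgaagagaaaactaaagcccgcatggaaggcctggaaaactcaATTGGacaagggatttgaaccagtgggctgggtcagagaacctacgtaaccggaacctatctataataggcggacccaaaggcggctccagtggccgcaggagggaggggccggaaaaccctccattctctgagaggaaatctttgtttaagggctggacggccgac
Zfp52: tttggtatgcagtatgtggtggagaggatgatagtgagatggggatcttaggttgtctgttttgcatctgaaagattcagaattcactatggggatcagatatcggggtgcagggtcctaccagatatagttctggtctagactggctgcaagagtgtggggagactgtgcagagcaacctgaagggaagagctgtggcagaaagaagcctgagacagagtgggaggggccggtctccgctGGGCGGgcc
Zfp667: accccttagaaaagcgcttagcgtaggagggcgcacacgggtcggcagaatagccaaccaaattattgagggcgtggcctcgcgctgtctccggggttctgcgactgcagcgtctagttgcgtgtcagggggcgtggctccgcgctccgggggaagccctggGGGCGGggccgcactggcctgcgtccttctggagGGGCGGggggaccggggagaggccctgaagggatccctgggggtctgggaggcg
The first 3 lie at chr9:22187916-22188165, chr17:21707491-21707740 and chr17:21535289-21535538 and the last at chr7:6286330-6286579, all on the plus strand. Zfp872 had 2 matches to CCAAT, Zfp760 had 1 match to CCAAT and 1 to GGGCGG, Zfp52 had 1 match to GGGCGG in these bases, and Zfp667 had 2 matches to GGGCGG. GC content over the full 300-base windows was 57.7%, 53.3%, 52.3% and 67.7%.

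Over all members, 181 had 219 promoters of 300 bases (250 before and 50 after the start) in the RefSeq table of 32851. CCAAT, the core of the NF-Y site, was found in 45.7% of members' promoters (54.1% with and 36.7% without a KRAB box) and in 37.4% of all promoters. GGGCGG, the GC box, was found in 52.1% (39.4% and 64.2%), beside 35.7%. The cyclic AMP response element TGACGTCA was in 3.65% of members' and 1.79% of all promoters, the AP-1 site TGACTCA in 3.20% and 5.20%, and the E box CACGTG in 7.31% and 7.15%. Both strands were searched, and none of the 5 contains another. CCAAT was in 48.3% of 145 promoters of members that were higher and 41.9% of 31 of members that were lower, and TGACTCA in 4.83% and 0% (0 of 31 promoters). These shares describe letters in a window.

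The list of KRAB members with well known silencing targets held 3 members, and all 3 rose, as did 84.5% of the 110 members with a KRAB box. Of genes with a mean of at least 100, 37.1% were called higher. Zfp809, which recognises the primer binding site of murine leukaemia virus proviruses, had normalized counts of 470.4, 480.1, 574, 509 and 526 before and 1644, 1510.2, 2196 and 1848 after culture (log2 fold change 1.80, SE 0.11, adjusted p = 6.35e-09). Zfp445, which maintains imprinted methylation, had 1493, 1508, 1428, 1572 and 1445 before and 2768, 2671, 2942 and 2830.4 after culture (log2 fold change 0.91, SE 0.06, adjusted p = 3.34e-08). Zfp568, which silences a placental promoter of Igf2, had 568, 563, 526, 531 and 532 before and 988, 951, 911 and 966 after culture (log2 fold change 0.81, SE 0.07, adjusted p = 3.50e-07). Every cultured sample was above every uncultured one for each of these 3 genes. Of the same list, 3 genes fell below the limit of membership: Zfp932, which acts on endogenous retroviruses, rose 1.95-fold (log2 fold change 0.97, 0.38 with GC and length correction), Zfp57, which keeps imprints together with Zfp445, fell 6.01-fold (log2 fold change -2.66, SE 0.30, adjusted p = 3.00e-06), and Zfp708 was too low to test. Zfp57 went from 132, 111, 121, 121 and 107 to 22.1, 16.7, 31.8 and 8.36, so these partners in imprint maintenance moved in opposite directions.

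Genes of the machinery that KRAB proteins recruit were called in both directions. Of 36 tested co-repressor genes, 15 were higher and 13 lower, where 34.2% and 34.6% of all tested genes were, with a median log2 fold change of -0.01. The 13 became 6 with GC and length correction and the title's replicate number as a block. That fit changes both steps at once, and the title numbers did not pair the samples. Trim28, the scaffold that binds the KRAB box, had normalized counts of 4192, 4095, 4447, 3402 and 4382 before and 2401, 2575, 1989.9 and 2278 after culture (log2 fold change -0.83, SE 0.10, adjusted p = 4.20e-06). The groups of Trim28 did not overlap, but with GC and length correction its log2 fold change was -0.14 and the call was lost (adjusted p = 0.0918). Setdb1, the methyltransferase brought in by Trim28, had 1503, 1422, 1487, 1533 and 1602 before and 1670.3, 1787, 1832 and 1729.5 after culture, a rise of 1.16-fold (log2 fold change 0.22, SE 0.07, adjusted p = 0.0101; 0.36 with GC and length correction). Resf1, a partner of Setdb1 in retroelement silencing, rose 3.26-fold, from 3349 ± 416 (SD, n = 5) to 10912 ± 1412 (SD, n = 4). Tasor, a subunit of the HUSH silencing complex, rose 2.39-fold (log2 fold change 1.26, SE 0.11, adjusted p = 1.87e-07), and the other HUSH subunits Mphosph8 and Pphln1 rose by 0.73 (0.45 with GC and length correction) and 0.83 on the log2 scale. Tasor has no value in the GC-corrected fit. Uhrf1, which carries DNA methylation through replication, fell 3.26-fold (log2 fold change -1.71, SE 0.10, adjusted p = 4.57e-09), beside the fall of all 10 mitosis genes. NuRD subunits Chd4, Chd3, Mta1, Mta2, Mbd3 and Gatad2a fell, with log2 fold changes of -0.65, -0.69, -0.54, -0.45, -0.71 and -0.80, which GC and length correction brought to -0.20, -0.0642, 0.0121, -0.0915, 0.10 and -0.32, with Chd4 and Gatad2a alone of the 6 still called. The single genes of this list other than Trim28, Setdb1, Resf1, Tasor and Uhrf1 were named after their values were seen.

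The largest falls were mostly in members without a KRAB box. Zfp521, a cofactor with 27 fingers that restrains B cell differentiation in blood progenitors, had normalized counts of 318, 330.4, 307, 292 and 252 before and 36.2, 52.3, 49.1 and 50.2 after culture. The cultured samples were all near 50 or below and the groups were far apart (log2 fold change -2.66, SE 0.15, adjusted p = 3.06e-09). Its close relative Zfp423, under the limit with a mean of 90.3 before and 10.3 after culture, also fell (log2 fold change -3.02, SE 0.24, adjusted p = 9.08e-08). Zfp667, a KRAB protein first described in ischaemic heart muscle, had 372, 338, 377, 326 and 371 before and 62.7, 103, 71.9 and 100.4 after culture (log2 fold change -2.09, SE 0.15, adjusted p = 5.16e-08). It was the only KRAB member among the 110 that was at least 2-fold lower.

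Zfp703 and Zfp503 are the NET family of cofactors, which carry no C2H2 array recognised here. Zfp703, at chr8:26977325-26981461, had normalized counts of 5344, 5369, 5892, 3682 and 5703 before and 1759.5, 2366, 1637 and 1749 after culture (log2 fold change -1.46, SE 0.14, adjusted p = 6.41e-07). Before-culture replicate 4 was the low one of its group and after-culture replicate 2 the high one, and the groups stayed apart. Without these samples in turn the log2 fold change was -1.58 and -1.58. Zfp503 had 559, 700.4, 574, 404 and 498 before and 238, 278, 187 and 184 after culture (log2 fold change -1.30, SE 0.16, adjusted p = 9.50e-06). Zfp710 was among the members with most reads, with 6368, 6565, 6228, 5647 and 6734 before and 2634, 3359, 2092 and 2805 after culture (log2 fold change -1.23, SE 0.11, adjusted p = 4.62e-07). Zfp608, Zfp367 and Zfp395 fell 2.04-fold, 2.12-fold and 2.43-fold without overlap. GC and length correction brought Zfp703, Zfp503, Zfp710 and Zfp395 to -0.73, -0.60, -0.67 and -0.81 on the log2 scale, all still called lower. Zfp954, a KRAB member, closed the list of 10 with a fall of 1.67-fold (log2 fold change -0.73, SE 0.09, adjusted p = 7.63e-06). Markers of neutrophils, endothelium, fibroblasts and epithelium fell in the same samples (7 of 8, 8 of 8, 8 of 8 and 7 of 8), and their part in the falls of these members was not tested.

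Of 7 members known from immune cells 1 was higher, 2 were lower and 4 were not called, where 37.1% and 36.3% of genes with a mean of at least 100 were higher and lower. Zfp366 (DC-SCRIPT), a repressor found in dendritic cells, had normalized counts of 2166, 1898, 1788, 1528 and 1858 before and 1639, 1607, 1677 and 1990.3 after culture, with overlapping groups (log2 fold change -0.09, SE 0.10, adjusted p = 0.427; 0.17, also without a call, with GC and length correction). Zfp91, a ubiquitin ligase of noncanonical NF-kB signalling, had 3545, 3759, 3791, 3999 and 3915 before and 3716, 4124, 3912 and 4462 after culture (log2 fold change 0.09, SE 0.07, adjusted p = 0.278). Zfp318, which B cells need for IgD, and Zfp341, which drives Stat3 transcription, had log2 fold changes of 0.14 and 0.06 with adjusted p-values of 0.145 and 0.725. With GC and length correction Zfp91, Zfp318 and Zfp341 were called higher (0.25, 0.21 and 0.69), as were Zfp91 and Zfp318 with upper quartile scaling (0.20 and 0.25).

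The 3 immune members that passed were Zfp292, Zfp335 and Zfp131. Zfp292, mutated in human chronic lymphocytic leukaemia, had normalized counts of 1915, 2013, 1996, 2426 and 2103 before and 2983, 2886, 3281 and 3157 after culture (log2 fold change 0.56, SE 0.08, adjusted p = 3.15e-05; 0.33 with GC and length correction). Zfp335, needed for maturation of T cells, had 1481, 1515, 1546, 1258 and 1666 before and 1082, 1066, 962 and 964 after culture (log2 fold change -0.55, SE 0.09, adjusted p = 8.58e-05), but with GC and length correction its log2 fold change turned to 0.18 (adjusted p = 0.0347), and 28.3% of its exon bases overlap another gene. Zfp131, a BTB-domain factor with a role in T cell development, had 1166, 1197, 1166, 1445 and 1203 before and 789, 777, 839.8 and 907 after culture (log2 fold change -0.57, SE 0.09, adjusted p = 4.78e-05). Before-culture replicate 4 was the highest sample of Zfp131, and without it the log2 fold change was -0.52, and -1.01 with GC and length correction. Zfp683 (Hobit), a factor of tissue-resident lymphocytes under the limit, fell from a mean of 37.7 to 8.64. Of the 10 T and NK cell genes 6 fell and 1 rose, and their part in this fall was not tested.

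Of 26 members on the list of transcription and chromatin factors 11 (42.3%) were higher, 11 lower and 4 not called, near the 37.1% and 36.3% of genes with a mean of at least 100, with a median log2 fold change of 0.12. Zfp217, which works with CoREST and CtBP co-repressors and is amplified in breast cancer, led the rises with normalized counts of 3015, 2782, 2896, 2904 and 3192 before and 8528, 8149, 8894 and 8953 after culture (log2 fold change 1.55, SE 0.07, adjusted p = 2.79e-10). The cultured samples clustered tightly, all above 2.5 times the highest uncultured one. Zfp260, a partner of GATA factors in the heart, rose 2.62-fold (log2 fold change 1.38, SE 0.10, adjusted p = 4.15e-08). Zfp143, an activator bound at many promoters, rose 1.75-fold, from 507 ± 22.7 (SD, n = 5) to 885 ± 25.8 (SD, n = 4). Zfp451, a SUMO ligase, rose 1.70-fold, and Zfp263, Zfp644 and Zfp148 rose 1.54-fold, 1.44-fold and 1.39-fold; the log2 fold changes of Zfp644 and Zfp148 went from 0.53 and 0.47 to 0.16 and 0.21 with GC and length correction.

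Smaller rises were called for Zfp410, the activator of Chd4 (1.30-fold), Zfp24 (1.26-fold), Zfp827 (1.36-fold) and Zfp276 (1.17-fold). The call of Zfp827 was lost without after-culture replicate 1 (log2 fold change 0.37) or 3 (0.32), and that of Zfp276 without after-culture replicate 1 (0.20) or before-culture replicate 2 (0.20). After the GC and length correction Zfp24 lost its call (0.0458, adjusted p = 0.627), Zfp410 stood at 0.21, and Zfp827 and Zfp276 were larger (0.71 and 0.89). Zfp462, Zfp467, Zfp281 and Zfp384 did not pass the test, with log2 fold changes of 0.29, 0.22, 0.02 and -0.00089. After GC and length correction these became 0.51, 0.84, -0.15 and 0.34, and all but Zfp281 were called higher. Besides the 6 of the 10 largest falls that are on this list, Zfp516, Zfp219, Zfp609, Zfp687 and Zfp592 were lower, and all 5 turned to values above 0 with GC and length correction (0.03, 0.49, 0.11, 0.24 and 0.24). Zfp516, a regulator of brown fat genes, had 5141, 4640.5, 4878, 4077 and 5227 before and 3459.9, 3492, 3237 and 3514 after culture (log2 fold change -0.48, SE 0.08, adjusted p = 1.26e-04). The call of Zfp592 was also lost in 7 of the 9 fits that left out 1 sample (all but those without after-culture replicate 2 or before-culture replicate 4), and that of Zfp219 without after-culture replicate 4 or before-culture replicate 1 or 3.

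Among 11 members with roles in RNA, translation or mitosis, 3 were higher, 2 lower and 6 not called, beside 37.1% and 36.3% of genes with a mean of at least 100. Zfp638 (NP220), which silences unintegrated retroviral DNA together with HUSH, had normalized counts of 2113, 2393, 2330.2, 2647 and 2331 before and 4469.5, 4362, 4968 and 4804 after culture (log2 fold change 0.98, SE 0.08, adjusted p = 9.47e-08). Zfp207 (BuGZ), a spindle protein, had 3599, 3493, 3977, 4315 and 4316 before and 5764, 5884, 6159 and 5703 after culture (log2 fold change 0.58, SE 0.08, adjusted p = 2.10e-05), a rise in samples in which all 10 mitosis genes fell; its log2 fold change was 0.26 with GC and length correction. Zfp277 rose 1.26-fold, which GC and length correction brought to a log2 fold change of -0.0259. Zfp622, which acts late in maturation of the large ribosomal subunit, had 1573, 1552, 1498, 1114 and 1717 before and 753, 758, 659 and 738 after culture (log2 fold change -1.02, SE 0.11, adjusted p = 2.64e-06). Its groups did not overlap. Zfp598, the ubiquitin ligase that marks collided ribosomes, had 2029, 1881, 2000.4, 1457 and 1996 before and 1468, 1372, 1371 and 1247 after culture (log2 fold change -0.45, SE 0.10, adjusted p = 0.0013), with before-culture replicate 4 inside the cultured range and a value of 0.23 after GC and length correction.

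The remaining 6 of that list were Zfp106, Zfp326, Zfp330, Zfp346, Zfp706 and Zfp830. Zfp106, an RNA-binding protein needed by motor neurons, had 5626, 5404, 5899, 5455 and 6415 before and 6090.4, 6878, 5843 and 6866 after culture, with overlapping groups (log2 fold change 0.16, SE 0.08, adjusted p = 0.0948). Its test passed without before-culture replicate 5 (log2 fold change 0.20) or after-culture replicate 3 (0.20) and with GC and length correction (0.30), and 26.1% of its exon bases overlap another gene. Zfp346, which binds double-stranded RNA, had a log2 fold change of 0.22 (adjusted p = 0.0541) and passed in 9 of 22 alternatives, among them without before-culture replicate 3 or after-culture replicate 3 (0.25 and 0.28), with DESeq2 (0.23) and with GC and length correction (0.54). Zfp593, a ribosome maturation gene under the limit, fell from a mean of 75.2 to 40.7 (log2 fold change -0.86, SE 0.19, adjusted p = 9.92e-04). Its call was lost with GC and length correction (-0.36). The other 4 members lay between -0.11 and 0.18. With GC and length correction Zfp326 and Zfp706 were called lower (-0.44 and -0.28), and with upper quartile scaling Zfp330 and Zfp830 were called higher (0.27 and 0.29), where GC and length correction gave Zfp330 -0.23.

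**Figure D4:**
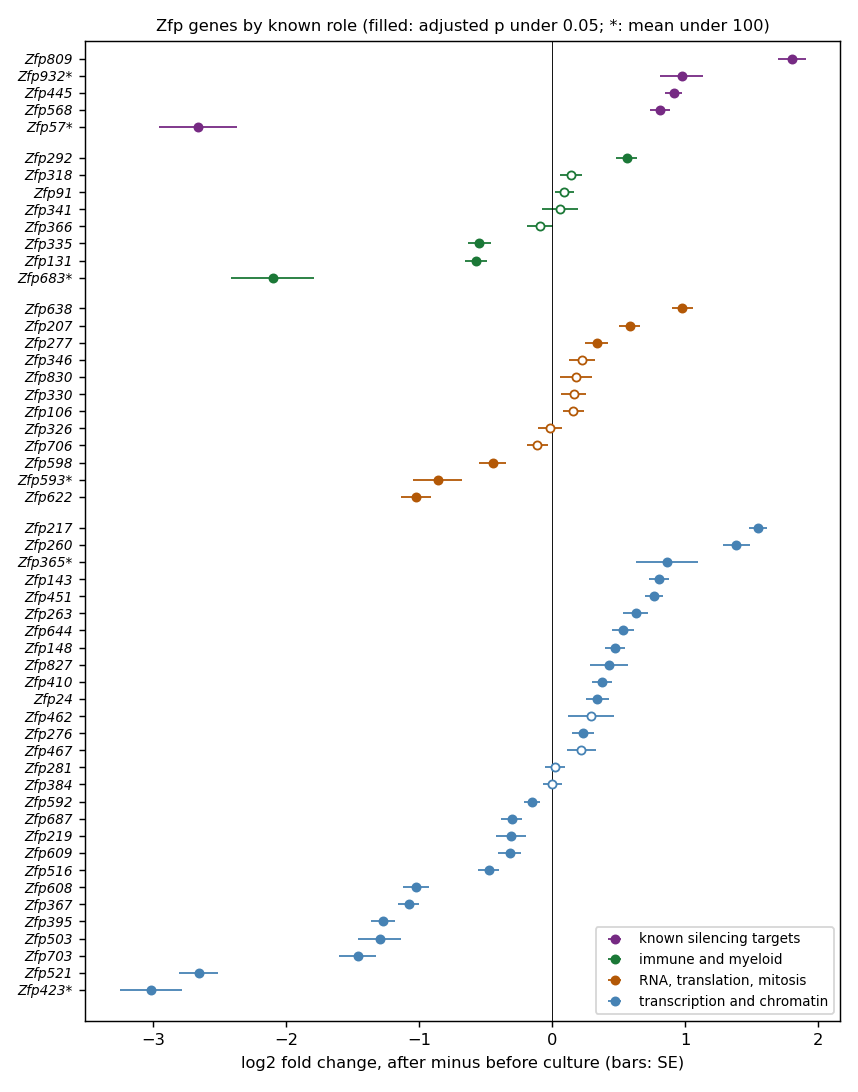
Log2 fold change after minus before culture with its standard error (horizontal axis) of the Zfp genes on 4 lists of known roles, with filled points for an adjusted p under 0.05 and a star for genes under the limit of membership. Genes with silencing targets lie right of 0 except Zfp57, immune genes lie near or left of 0 except Zfp292, and transcription factors spread to both sides; Zfp516, Zfp335, Zfp219, Zfp592, Zfp687, Zfp609, Zfp598, Zfp384, Zfp366, Zfp281, Zfp330 and Zfp277 change sign with GC and length correction.

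Base composition went with the change, in the family and beyond it. The median GC content of the longest transcript was 41.2% in KRAB members and 50.02% in members without the box. Across 224 members the rank correlation of GC content with the log2 fold change was -0.61, and it was -0.48 within KRAB members and -0.42 within the rest (Spearman, descriptions over genes of the same libraries). Of 118 members under 45% GC 101 were higher and 5 lower (median 1.07), where 3052 tested genes of that range with a mean of at least 100 gave 59.0% higher, 19.2% lower and a median of 0.38. Of 71 members at 50% GC or more 26 were higher and 23 lower (median 0.04), beside 22.9%, 48.7% and -0.24 for 5413 genes. Within the low range, 83 KRAB members had a median of 1.32 and 34 members without the box 0.55; at 45% or more, 27 KRAB members had 0.56 and 78 without the box 0.11. After removal of each sample's trend over GC content and length, 85 of 110 KRAB members were called higher and 4 lower, with a median of 0.78: 81 of the 93 called higher without correction kept the call, 12 lost it, 3 were newly called and 1 turned from lower to higher. Of 112 members without the box 78 were higher and 13 lower, with a median of 0.38: 52 of 56 kept the higher call, 18 were newly called higher, and of 24 called lower 10 kept the call, 6 lost it and 8 turned to higher. These stand against 0.13 for all genes in the same fit, and the cause of the trend over GC content was not tested.

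**Figure D5:**
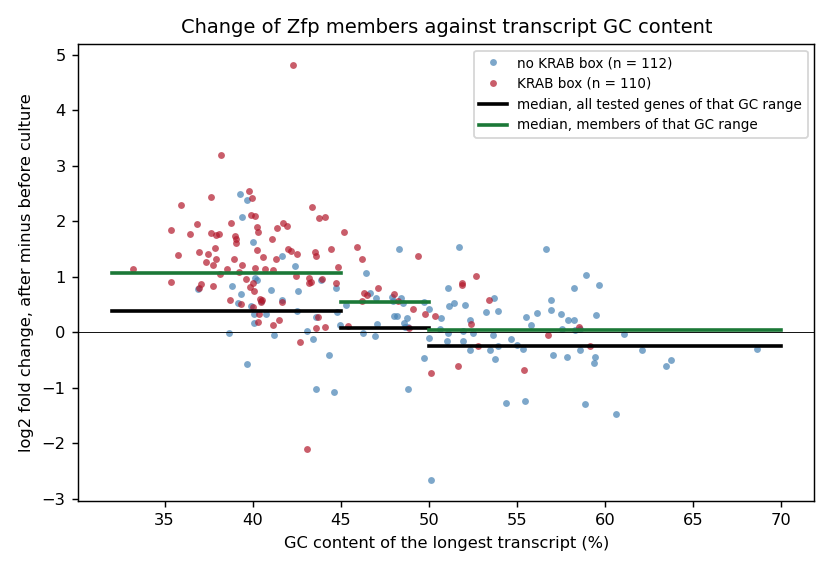
Log2 fold change after minus before culture (vertical axis) against the GC content of the longest transcript (horizontal axis, percent) for 110 Zfp members with a KRAB box and 112 without, with bars at the median of members and of all tested genes with a mean of at least 100 in 3 ranges of GC content. The members' bars stand above those of all genes in each range, at 1.07 against 0.38 under 45%, at 0.54 against 0.08 from 45% to 50%, and at 0.04 against -0.24 at 50% or more.

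The 43 members that did not pass the test lay between -0.32 and 0.31 on the log2 scale, with a median standard error of 0.11. Of these, 11 carry a KRAB box and 32 do not. A missed threshold does not show that a gene kept its level. Exons overlapped those of another gene over 10% or more of their bases in 25 members, and since the strand setting of the counting is not given in the sources used here, reads of overlapping genes may be mixed in them. Of the genes with values above these include Zfp335, Zfp106, Zfp276, Zfp703, Zfp219, Zfp341 and Zfp367.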

How the data were processed

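RNA-seq was done on 9 samples (5 before, 4 after culture) by a sequencing company. The authors deposited 1 signal table of normalized read counts per gene, each column divided by 1 size factor; DESeq2 and GRCm38 are named per the submitters' processing notes, and the aligner, counter, annotation and strand setting are not given in the sources used here. The labels' extract protocol speaks of total lung RNA, while the design speaks of bead-isolated cells. Every deposited value was a whole multiple of 1 read (100% within 0.001), and 3782 of 49317 rows had no symbol, with 3.87% to 10.9% of reads per sample; they stayed out of all tests.

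The 18202 named genes with a mean of at least 10 were compared on log2(normalized count + 1) with limma 3.58.1 (mean-variance trend, no block), and p-values were Benjamini-Hochberg adjusted over all of them; fold changes of low genes are understated on this scale. This fit called 12524 genes; on the recovered reads, edgeR 4.0.16 (quasi-likelihood) called 12562 and DESeq2 1.42.0 called 12663. Other alternatives were pseudocounts of 0.5 and 8, no filter or a mean of at least 50, TMM, upper quartile and quantile scaling, GC and length correction (mgcv 1.9.3, 97.0% of tested genes), replicate blocks, and leaving out each sample. Scripts were tested on simulated data. GENCODE M21 models gave places, lengths and GC content for 224 members and coding sequences for 222, and RefSeq gave promoters.

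The text names the 10 highest and 10 lowest log2 fold changes among members past the threshold, the 5 members with the highest mean, all members of 4 role lists, and Trim28, Setdb1 and the 3 largest changes of the co-repressor list; of the co-repressor list 37 of 38 symbols matched. Members and lists were chosen with earlier results of these data known.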

Additional observations from a re-analysis of the deposited data

Results flagged for a closer look

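In 10 of 136 groups of values checked for named genes, 1 sample stood far from the others of its group; chance gives about 1 in 20, or 6.8. Before-culture replicate 4 was that sample in 7 of the 10. It was the highest of its group for Zfp945 (normalized count 257.0, others 159.0 to 181), Zfp131 (1445, others 1166 to 1203) and Zfp644 (2321, others 1864 to 1923). It was the lowest for Zfp703 (3682, others 5344 to 5892), Zfp609 (2135, others 2474 to 2599), Zfp598 (1457, others 1881 to 2029) and Zfp706 (2145, others 2383 to 2468). The same sample had the lowest macrophage and neutrophil sums and the highest epithelial, T and NK cell and mitosis sums of its group, whose part was not tested.

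After-culture replicate 2 was the highest for Zfp703 (2366, others 1637 to 1759.5) and the lowest for Zfp467 (374.5, others 436 to 448). Before-culture replicate 5 was the highest for Zfp830 (298.9, others 218 to 233). Without before-culture replicate 4 the log2 fold changes of Zfp945, Zfp644, Zfp609, Zfp598 and Zfp706 were 2.42, 0.59, -0.37, -0.54 and -0.15, beside 2.30, 0.53, -0.32, -0.45 and -0.11 with all samples; the sign of Zfp609 and Zfp598 turned with GC and length correction.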

How the results depend on the processing

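Of 301 recomputed values that answer the comparison, 285 kept their direction and stayed close to the reported value and 16 moved. Of 1428 recomputed gene values, 1346 kept their side of the threshold, 36 passed it newly, 28 no longer passed it and 18 reversed. A gene value counted as reversed only where it was called in the main fit or in the alternative. The 1346 therefore include uncalled genes whose sign changed, such as Zfp366, Zfp281 and Zfp330 with GC and length correction. Without any 1 sample, between 152 and 157 members were higher and 24 to 31 lower, 73 to 78 were at least 2-fold higher and 8 to 9 at least 2-fold lower, and the median was 0.59 to 0.63. The same fits gave 91 to 93 KRAB members higher and 4 to 6 lower (median 1.05 to 1.16), 54 to 57 members without the box higher and 20 to 25 lower (median 0.24 to 0.27), and 14 to 15 co-repressor genes higher and 13 to 16 lower.

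GC and length correction produced the 18 reversed gene values, alone or with the block. It lowered the count of members called lower to 17, of members at least 2-fold lower to 5 and of members without the box called lower to 13, and set the medians at 0.78 with and 0.38 without the box. With the replicate number as a block as well, these values were 16, 5, 12, 0.82 and 0.41, and 6 co-repressor genes were lower. Upper quartile scaling gave medians of 0.70 for all members, 1.21 with and 0.37 without the box, and quantile normalization gave 0.72 for all members and 1.28 with the box. Reversed values with GC and length correction, and with the block besides, were 0.0324 and 0.0748 for Zfp516, 0.18 and 0.22 for Zfp335, 0.49 and 0.47 for Zfp219, 0.34 and 0.37 for Zfp384, 0.24 and 0.25 for Zfp592, 0.24 and 0.27 for Zfp687, 0.11 and 0.13 for Zfp609, 0.23 and 0.25 for Zfp598, and -0.0259 and -0.0253 for Zfp277; the cause was not tested.

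The replicate numbers in the titles did not pair the samples: deviations from group means correlated at 0.081, 0.080, -0.213 and -0.040 over same-numbered pairs. Library numbers gave 0.081, 0.247, 0.349 and 0.045, each cultured sample correlating best with its own number, which is a hint from the data and not the design. With the title number as a block 151 members were higher and 25 lower, and with the library number 157 and 29.

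Of 156 members called higher, 130 were called in every setting and 2 reversed in any. Of 30 called lower, 17 passed the threshold in every setting, counting calls of either direction, and 15 reversed in any. With GC and length correction 13 of the 30 stayed lower, 8 lost the call and 9 turned to higher. At the limit of 100, a normalized count stands for 55.9 to 132 reads, a counting error of 8.71% to 13.4%. The median spread between samples over members was 10.8% before and 8.52% after culture. The members' median level was 385, where the counting error is smaller, so these values are not at the same level.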

Other observations

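Zinc finger genes whose Zfp symbol holds letters after the number, which the membership rule leaves out, were called higher in 15 and lower in 3 of 20 genes with a mean of at least 100 (median log2 fold change 1.04). The 6 members whose protein carries a SCAN domain, which pairs such proteins with each other, were called higher in 5 and lower in 1. Among members without a KRAB box, 44 with 5 or fewer fingers gave 18 higher and 14 lower (median 0.15) and 68 with 6 or more gave 38 higher and 10 lower (median 0.32).

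The 7 members for which GENCODE M21 gave no coding sequence were Zfp267, Zfp268, Zfp1006, Zfp696, Zfp175, Zfp469 and Zfp125, the first 5 without any entry of that symbol; all but Zfp469 are named after their values were seen. Their log2 fold changes were 1.77, 1.48, 1.41, 0.85, 0.77, 3.12 and 1.39, all called higher. Zfp365, on the list of transcription factors and under the limit of 100, was higher as well (log2 fold change 0.86, SE 0.23, adjusted p = 0.00486). In reads per 1000000 named reads, the scale without the authors' size factors, the members summed to 5807 ± 172 (SD, n = 5) before and 7681 ± 541 (SD, n = 4) after culture, and the KRAB members had a ratio of 2.00 between the groups.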
